A study of Mus musculus with 4 samples.

Results

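The serpins are a family of protease inhibitors, and their genes were followed here as DNA copy number in 4 mouse liver tumours. A gene was a member when it lay on an autosome and its name on the array began with Serpin. This gave 40 genes of 21343 named autosomal genes, read by 89 probes (1 to 11 per gene), with 15 genes resting on 1 probe. In the RefSeq gene table of assembly GRCm38.p6, all 40 were found by symbol and 28 other autosomal Serpin symbols were not among the members. These include the alpha-1 antitrypsin copies Serpina1a to Serpina1d, the antichymotrypsin relatives Serpina3k and Serpina3n, heparin cofactor II (Serpind1) and alpha-2 antiplasmin (Serpinf2), which were not analysed here.

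The tumours came from 4 C57BL/6J mice with liver-specific loss of Trp53, and the labels give genotype Trp53-/- and male sex for tumour and reference alike. The animals were untreated, and the labels name no age, no promoter for the deletion and no second group. Tumour DNA carried Cy5 and reference DNA Cy3 on every array, with no dye swap. The labels give the reference as spleen, and the study's design text as DNA pooled from 3 littermates of the same sex, whereas the labelling protocol names liver. The reference was thus not each tumour's own mouse. Values are log2 ratios of tumour to reference signal, centred on each array's autosomal median, so 0 is the array's own middle and not a counted number of copies. Fewer tumour cells with a change and a smaller change per cell cannot be told apart in such ratios.

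The arrays differed in noise and in their sex chromosomes. Noise was measured as the neighbour SD, the SD of differences between neighbouring probes divided by the square root of 2. It was 0.14, 0.38, 0.16 and 0.17 (log2) in tumours 1 to 4, so tumour 2 was the noisiest. Spots well above background made up 98.9% to 99.9% of the reference channel, and none of the 93 serpin spots was flagged, saturated or near background on any array. The deleted gene was read by 2 Trp53 probes on chromosome 11, at chr11:69397121-69397180 (-0.53, -0.78, -0.07 and -0.76) and at chr11:69404685-69404744 (0.14, 0.51, 0.31 and 0.17). The deleted stretch is not given in the sources used here, so these probes check the genotype only in part. X probes read -0.82, -0.05, -0.01 and 0.84, and Y probes 2.22, -0.09, -0.20 and -2.35. In the separate channels, the reference of tumour 1 (X at -0.07 and Y at -3.38, relative to autosomes) and the DNA of tumour 4 (X at -0.07 and Y at -3.10) stood apart from the other channels (X at -0.89 to -0.93, Y at -0.69 to -1.17). Both go against the label male. The arrays of tumours 1 and 4 correlated at r = -0.61 over all 169093 placed probes and at r = 0.18 over the 159076 autosomal ones. The direction was kept because the labelling protocol states the dyes. Results are given with tumours 1 and 4 and, where this changes them, without.

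Most serpins trap a protease by offering a reactive loop as bait: the protease cuts the loop, the serpin snaps into a new fold, and the enzyme is held in a covalent complex. The liver makes many of the serpins of blood plasma, among them alpha-1 antitrypsin, antithrombin and C1 inhibitor. The family also holds members that inhibit nothing, such as a hormone carrier (Serpina6) and a collagen chaperone (Serpinh1). The A clade is mostly secreted and many of its mouse genes stand side by side on chromosome 12. The B clade is mostly intracellular and is grouped on chromosomes 1 and 13. Both sets have been expanded in the mouse by local duplication, which leaves close copies such as Serpinb1a, Serpinb1b and Serpinb1c.

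The probes behind the results are 45 to 60 bases long, with a G and C content of 26.7% to 51.1% (mean 36.9%, against 36.5% over all autosomal probes). All positions are on the mouse build mm9 as deposited, and exon or intron positions were not determined, since no annotation of that build was used here. Serpinb8 and Serpinh1 are shown because they had the highest and the lowest mean among genes with at least 2 probes, Serpinb2 and Serpina3m because their sign differed between tumours, and Serpina3g because its probes differ most in base composition. G and C are in capitals.
Serpinb8 probe 1, chr1:109489521-109489580: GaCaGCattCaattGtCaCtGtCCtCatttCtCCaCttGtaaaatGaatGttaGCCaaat
Serpinb8 probe 2, chr1:109494072-109494130: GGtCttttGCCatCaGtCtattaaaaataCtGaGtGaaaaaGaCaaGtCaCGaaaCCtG
Serpinb8 probe 3, chr1:109499312-109499371: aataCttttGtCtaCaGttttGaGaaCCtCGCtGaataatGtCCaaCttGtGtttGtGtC
Serpinh1 probe 1, chr7:106493920-106493979: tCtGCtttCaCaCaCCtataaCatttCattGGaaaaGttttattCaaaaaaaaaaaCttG
Serpinh1 probe 2, chr7:106499582-106499641: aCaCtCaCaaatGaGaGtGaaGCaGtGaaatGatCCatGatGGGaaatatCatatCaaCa
Serpinb2 probe 1, chr1:109412083-109412142: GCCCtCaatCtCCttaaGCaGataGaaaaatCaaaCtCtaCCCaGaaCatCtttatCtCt
Serpinb2 probe 2, chr1:109416159-109416218: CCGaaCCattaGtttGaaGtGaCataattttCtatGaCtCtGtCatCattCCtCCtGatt
Serpina3m probe 1, chr12:105628850-105628909: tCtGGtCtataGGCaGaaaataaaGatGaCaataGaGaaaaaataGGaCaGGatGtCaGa
Serpina3g probe 1, chr12:105463950-105464009: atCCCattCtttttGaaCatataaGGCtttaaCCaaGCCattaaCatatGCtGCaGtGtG
Serpina3g probe 2, chr12:105467221-105467265: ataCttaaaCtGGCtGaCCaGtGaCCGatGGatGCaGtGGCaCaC
Serpina3g probe 3, chr12:105470227-105470285: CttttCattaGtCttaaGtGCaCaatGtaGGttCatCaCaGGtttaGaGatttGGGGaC

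Close copies could in principle share probe sequence. For each of the 89 serpin probes, the longest run of at least 15 bases shared with any other probe of the array was recorded. That longest run lay in another serpin gene only for a probe each of Serpinb1a and Serpinb1c. These neighbouring copies of the leukocyte elastase inhibitor gene share 17 bases, in capitals below. Equal or shorter runs between other serpin genes were not counted. The longest run that any serpin probe shared with any other probe of the array was 19 bases. Hybridization to paralogous DNA that carries no probe was not tested.
Serpinb1a probe 2, chr13:32940630-32940689: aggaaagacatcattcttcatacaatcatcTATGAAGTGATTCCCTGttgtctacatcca
Serpinb1c probe 2, chr13:32980915-32980974: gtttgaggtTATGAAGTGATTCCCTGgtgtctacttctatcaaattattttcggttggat

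The Serpina cluster was higher than the rest of chromosome 12 in all 4 tumours, but the design cannot carry this past a threshold. The cluster ran over 760 kb (chr12:104868908-105628909), from Serpina10 to Serpina3m, with 11 members and 57 probes, 19 of which carry a Serpin name. In tumours 1 to 4 the cluster read -0.15, 0.20, -0.06 and -0.08, and the other 7399 probes of the chromosome read -0.17, -0.04, -0.12 and -0.18. Tumour 2 was thus above 0 at the cluster and the other tumours were below 0. The cluster minus the rest was 0.03, 0.24, 0.05 and 0.10, with a mean of 0.10 ± 0.09 (SD, n = 4). The exact two-sided sign-flip permutation test gave p = 0.13, the smallest that 4 tumours allow, and 0.375 after Benjamini-Hochberg adjustment over the 3 clusters. Tumour 2 had the largest difference, and without it the mean was 0.06. Without tumours 1 and 4 it was 0.14. The mean was 0.13 over the tumours of slide 1 (tumours 1 and 2) and 0.07 over those of slide 2.

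The cluster and the rest of the chromosome also differed in base composition, and whether this causes the difference in ratio was not tested. The cluster's probes held 38.7% G and C and the rest of the chromosome 36.5%, and in tumour 2 the log2 ratio of the 89 serpin probes rose with their G and C content (r = 0.59, across probes, which share the array and are not independent). In tumours 1, 3 and 4 that correlation was 0.04, 0.00 and 0.27, and over all autosomal probes it was 0.09, 0.28, 0.06 and 0.09 in tumours 1 to 4. With the trend on G and C removed from each array, the mean of the cluster minus the rest was 0.07. The values were 0.01, 0.14, 0.04 and 0.08 in tumours 1 to 4. With the trend on signal intensity removed the mean was 0.05. Both means are above 0 with p = 0.13 (exact sign-flip permutation test), the smallest p possible.

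**Figure D1:**
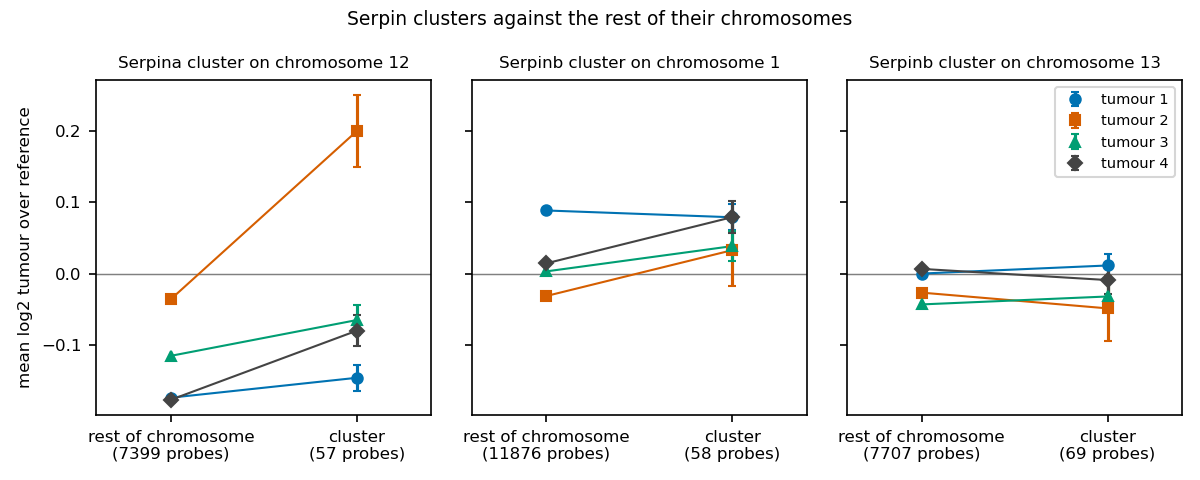
Mean log2 tumour to reference ratio in each tumour (colours) for all probes of a serpin cluster and for all other probes of its chromosome. Bars are the neighbour SD of the array over the square root of the number of cluster probes. The Serpina cluster lay above the rest of chromosome 12 in 4 of 4 tumours, by 0.24 in tumour 2 and by 0.03 to 0.10 in the others.

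Chromosome 12 was mostly below 0 in tumours 1, 3 and 4, and so was the cluster. In tumour 1, 82.5% of the cluster's probes were below 0, against 90.1% of the rest. In tumours 3 and 4 the shares were 64.9% against 78.0% and 68.4% against 86.1%. In tumour 2, 26.3% of the cluster's probes were below 0, against 52.5% of the rest. The probes are not even: the widest gap was 88.6 kb, against a median spacing of 8.87 kb.

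**Figure D2:**
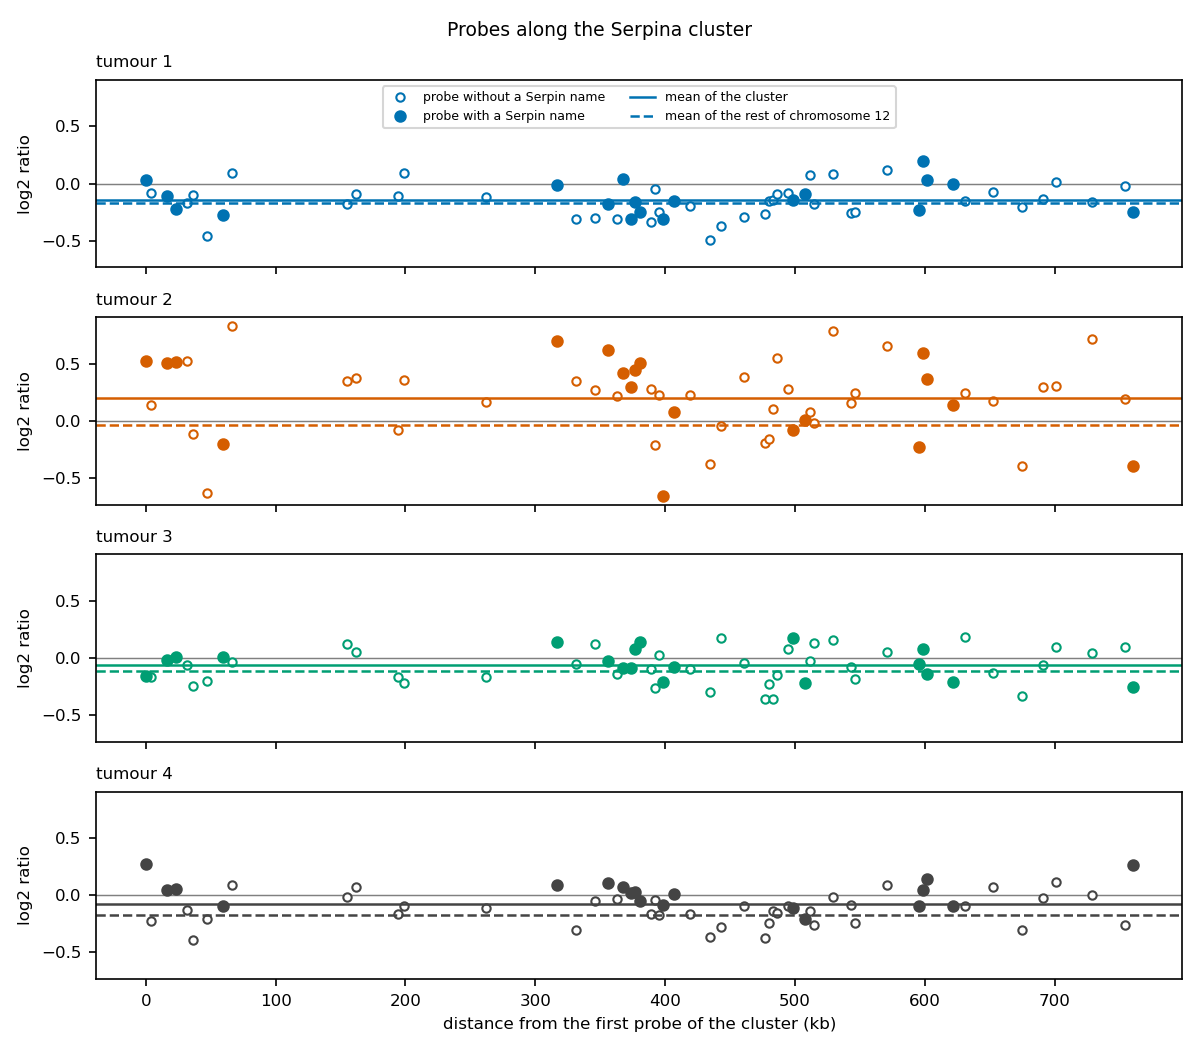
Log2 tumour to reference ratio of each probe along the Serpina cluster, against the distance from its first probe in kb, 1 panel per tumour. Filled points carry a Serpin name, the full line is the cluster's mean and the dashed line the mean of the rest of chromosome 12, which is the lower line in each panel.

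Gene by gene, the Serpina cluster was lowest in tumour 1 and highest in tumour 2. Of its 11 genes, 10, 4, 8 and 4 were below 0 in tumours 1 to 4, against 48.2%, 48.1%, 52.8% and 56.1% of all genes. Chromosome 12 was itself low: 90.1%, 52.5%, 78.0% and 86.1% of its other probes were below 0. The low values of tumour 1 are therefore not particular to the Serpina genes. Their medians were -0.17, 0.25, -0.02 and 0.03. Serpina10, the protein Z-dependent inhibitor of activated factor X, read 0.03, 0.52, -0.16 and 0.28 on its 1 probe. Serpina6, the corticosteroid-binding globulin of plasma, read -0.17, 0.51, -0.01 and 0.05 over 2 probes, which gave 0.51 each in tumour 2. Tumour 2 was the highest at that gene. The expected error there, the neighbour SD over the square root of the probe number, was 0.27. The 0.51 thus lay within 2 such errors. The gene's mean was 0.10 ± 0.29 (SD, n = 4).

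Serpina1e, a mouse copy of alpha-1 antitrypsin, the plasma inhibitor of neutrophil elastase, had the highest mean of all 40 members, 0.23 ± 0.32 (SD, n = 4). It read -0.01, 0.70, 0.14 and 0.09 on a single probe of 43.1% G and C. Tumour 2 was again the highest, but 0.70 lay within 2 expected errors (0.38 each). With the trend on G and C removed its mean was 0.11 ± 0.18 (SD, n = 4). Serpina1f, a relative earlier in the cluster, read -0.28, -0.20, 0.01 and -0.09. Serpina11 read -0.18, 0.62, -0.02 and 0.11, and Serpina9, a serpin of germinal centre B cells, read -0.17, 0.42, 0.01 and 0.02 over 4 probes. All 4 Serpina9 probes were above 0 in tumour 2, from 0.30 to 0.51.

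Serpina12 (vaspin, known from adipose tissue) was the member of this cluster with the lowest mean, -0.17 ± 0.11 (SD, n = 4). It read -0.23, -0.29, -0.14 and -0.03, below 0 in all tumours, with an adjusted p of 0.158 in the limma test over all genes. Its probes differed: in tumour 2 one read -0.66 and the other 0.07. The antichymotrypsin relatives were split. Serpina3b read -0.12, -0.04, -0.02 and -0.16, and Serpina3h, on 1 probe, 0.00, 0.14, -0.21 and -0.09. Serpina3g read 0.00, 0.25, -0.04 and 0.03, and its 3 probes, printed above, held 36.7%, 51.1% and 39.0% G and C and read -0.23, 0.59 and 0.37 in tumour 2.

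**Figure D3:**
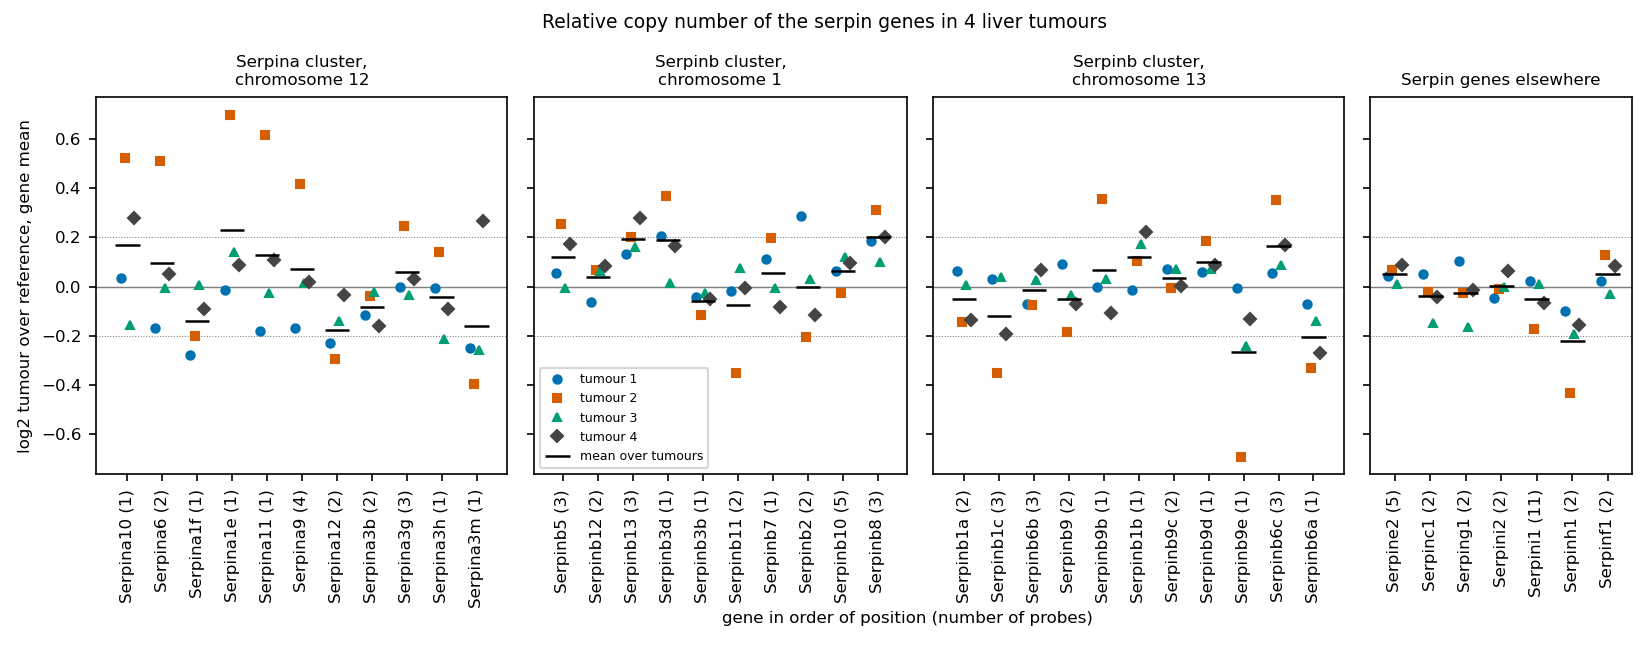
Log2 tumour to reference ratio of the serpin genes (mean over their probes, number in brackets, 1 member not shown) in tumours 1 to 4, in order of position. Dotted lines mark 0.2 and -0.2, and black bars are means over the tumours. Tumour 2 (squares) holds both extremes, 0.70 at Serpina1e and -0.69 at Serpinb9e.

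The Serpinb cluster on chromosome 1 was slightly above 0 in every tumour and above the rest of its chromosome in 3 of the 4. It ran over 737 kb (chr1:108761989-109499371) from Serpinb5 to Serpinb8, with 10 members and 58 probes. The cluster read 0.08, 0.03, 0.04 and 0.08, and the other 11876 probes 0.09, -0.03, 0.00 and 0.01. The difference was -0.01, 0.06, 0.04 and 0.06, on average 0.04 ± 0.03 (SD, n = 4). It was positive in 3 of the 4 tumours, and the exact two-sided sign-flip permutation test gave p = 0.25 (adjusted 0.375).

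Serpinb8, an intracellular inhibitor of furin-type proteases, had the highest mean among members with at least 2 probes, 0.20 ± 0.09 (SD, n = 4), a ratio of 1.15. It read 0.19, 0.31, 0.10 and 0.20, and each of its 3 probes was above 0 in each tumour, from 0.03 to 0.44. Its adjusted p was 0.0934 (limma over 13389 genes). Serpinb13, an inhibitor of lysosomal cathepsins, read 0.13, 0.20, 0.16 and 0.28. Its mean was 0.19 ± 0.06 (SD, n = 4), with an adjusted p of 0.0866 (limma), the smallest of all members tested. Without tumour 2 both passed, Serpinb13 at 0.19 (adjusted p = 0.0334) and Serpinb8 at 0.16 (adjusted p = 0.0405, limma), where 3.11% of all genes tested passed as higher.

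Serpinb5, the tumour-suppressor serpin maspin, read 0.05, 0.26, -0.01 and 0.17 over 3 probes (mean 0.12 ± 0.12, SD, n = 4). The values spread from 0 to above 0.2 and the adjusted p was 0.283 (limma). Serpinb2, a serpin of macrophages and skin, read 0.29 in tumour 1, -0.20 in tumour 2, 0.03 in tumour 3 and -0.12 in tumour 4, with a mean of 0.00 ± 0.22 (SD, n = 4). Its 2 probes went together in tumours 1 (0.27 and 0.31) and 2 (-0.21 and -0.20).

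Of the other genes of this cluster, Serpinb10 read 0.06, -0.02, 0.12 and 0.10 over 5 probes, and Serpinb11 read -0.02, -0.35, 0.08 and 0.00. The squamous cell carcinoma antigen relatives had 1 probe each. Serpinb3d read 0.21, 0.37, 0.02 and 0.17 and Serpinb3b -0.04, -0.11, -0.02 and -0.05. Every Serpinb3b value was smaller than its expected error (0.14, 0.38, 0.16 and 0.17). With the trend on G and C removed its mean was 0.02. Serpinb7 read 0.11, 0.20, 0.00 and -0.08. Serpinb12 read -0.06, 0.07, 0.07 and 0.08 over 2 probes, each smaller than its expected error (0.10, 0.27, 0.11 and 0.12). Its probes differed in sign in tumours 2, 3 and 4.

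The Serpinb cluster on chromosome 13 lay close to the rest of its chromosome in every tumour. It ran over 1076 kb (chr13:32935875-34011732) from Serpinb1a to Serpinb6a, with 11 members and 69 probes. It read 0.01, -0.05, -0.03 and -0.01, and minus the other 7707 probes 0.01, -0.02, 0.01 and -0.02. The mean difference was -0.0038 ± 0.018 (SD, n = 4). It was positive in 2 of the 4 tumours, and the exact permutation of signs gave p = 0.75 (adjusted 0.75).

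Serpinb1a, the inhibitor of neutrophil elastase inside leukocytes, read 0.06, -0.14, 0.01 and -0.13 (mean -0.05 ± 0.10, SD, n = 4). Serpinb1c read 0.03, -0.35, 0.04 and -0.19. One of its 3 probes, with 26.7% G and C, read 0.24, -0.99, 0.17 and -0.43, whereas the probe that shares the printed run with Serpinb1a read 0.01, 0.09, 0.02 and 0.00. Serpinb1b read -0.01, 0.10, 0.18 and 0.22 on 1 probe.

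Serpinb9, the inhibitor with which lymphocytes shield themselves from granzyme B, read 0.09, -0.18, -0.03 and -0.07 (mean -0.05 ± 0.11, SD, n = 4). Its relatives ranged widely. Serpinb9e had the lowest mean of all members, -0.27 ± 0.30 (SD, n = 4), and read -0.01, -0.69, -0.24 and -0.13 on 1 probe of 33.3% G and C. Serpinb9b read 0.00, 0.36, 0.03 and -0.11, Serpinb9c 0.07, -0.01, 0.07 and 0.00, and Serpinb9d 0.06, 0.19, 0.07 and 0.09.

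Of the Serpinb6 genes, Serpinb6c and Serpinb6a lay on opposite sides of 0 in every tumour, but no value of either passed 2 expected errors. Serpinb6c read 0.05, 0.35, 0.09 and 0.17 over 3 probes (mean 0.17 ± 0.13, SD, n = 4, adjusted p = 0.204 by limma). Serpinb6a read -0.07, -0.33, -0.14 and -0.27 on 1 probe (mean -0.20 ± 0.12, SD, n = 4). Serpinb6b read -0.07, -0.07, 0.03 and 0.07, and its 3 probes ranged from -0.88 to 0.46 in tumour 2.

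The 8 serpins outside the clusters include plasma protease inhibitors with well known roles. Serpinc1, antithrombin, the chief inhibitor of thrombin, read 0.05, -0.02, -0.15 and -0.04 (mean -0.04 ± 0.08, SD, n = 4). Serping1, the C1 inhibitor of complement and the contact system, read 0.11, -0.02, -0.16 and -0.01. At both genes the tumours lay on both sides of 0.

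Serpine2, protease nexin-1, read 0.04, 0.07, 0.01 and 0.09 over 5 probes, the narrowest spread of any member with all tumours above 0 (mean 0.05 ± 0.03, SD, n = 4, adjusted p = 0.473 by limma). Serpinf1, the angiogenesis inhibitor PEDF, read 0.02, 0.13, -0.03 and 0.09. Serpini1, neuroserpin of the nervous system, had the most probes, 11, and read 0.02, -0.17, 0.01 and -0.07. Its probes spread from -0.76 to 0.42 in tumour 2. Serpini2 read -0.05, -0.01, 0.00 and 0.06.

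Serpinh1, which encodes HSP47, the collagen chaperone of the endoplasmic reticulum, had the lowest mean among members with at least 2 probes, -0.22 ± 0.15 (SD, n = 4). It read -0.10, -0.43, -0.19 and -0.16, and both printed probes were below 0 in every tumour. The adjusted p was 0.133 (limma). Its first probe holds 26.7% G and C, and with the trend on G and C removed the mean was -0.17 ± 0.07 (SD, n = 4). With the trend on signal intensity removed it was -0.09. The gene passed without tumour 2 (mean -0.15, adjusted p = 0.0480, limma) and with normexp background correction of the unprocessed signals (mean -0.41, adjusted p = 0.0258, limma).

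Over all members, none of the 25 genes with at least 2 probes passed the limma test at an adjusted p of 0.05, in either direction. The background was 0% of 13389 genes higher and 0% lower, so the test made no call on any gene. At an unadjusted p under 0.05, 5 members passed, against 19% of all genes tested. Without tumour 2, 3 members passed (Serpinb13, Serpinb8 and Serpinh1), where the background was 3.11% higher and 5.58% lower. The same 3 genes passed with the slide as a random block (backgrounds 3.55% and 4.8%). The fitted correlation within a slide was -0.34, and a negative value narrows the standard error of an unchanged mean. These passes are therefore not added support. With normexp correction, Serpinb8, Serpinh1 and Serpina3b passed (backgrounds 4.85% and 6.06%). The tumours came from separate mice, so these p-values rest on the spread between animals, and the reference's own spread is left out.

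The signs of the members were near the background. There were 6 genes above 0 in all 4 tumours, which is 15% of the members against 15.3% of all genes. These were Serpine2, Serpinb13, Serpinb3d, Serpinb8, Serpinb9d and Serpinb6c. Likewise 6 genes were below 0 in all 4 (15% against 15.6%), namely Serpinb3b, Serpinh1, Serpina12, Serpina3b, Serpinb9e and Serpinb6a. The remaining 28 had mixed signs. Without tumour 1, 10 of the 40 members were above 0 in the other 3 tumours, as were 22.2% of all genes. None of the genes above 0 in all tumours was a Serpina gene.

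The members' values were also no wider than those of other genes. The SD over the members was 0.12, 0.31, 0.11 and 0.14 in tumours 1 to 4, and over all genes 0.14, 0.34, 0.13 and 0.16. Taking the neighbour SD over the square root of the probe number as a gene's expected error, 5, 1, 0 and 2 of the 40 members lay more than 2 such errors from 0 (12.5%, 2.5%, 0% and 5%, against 15.9%, 11.4%, 9.37% and 14.7% of all genes). In tumour 1 these were Serpinb8 and Serpinb2 above 0 and Serpina1f, Serpina9 and Serpina12 below. Serpina9 was the one in tumour 2, and Serpinb13 and Serpinb8 were those in tumour 4.

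Opposite signs between tumours were counted when at least 1 tumour was at or above 0.2 and at least 1 at or below -0.2, a description with no test. This held for 2 members, 5% against 4.5% of all genes. Serpinb2, described above, had tumour 1 at 0.29 and tumour 2 just past the threshold at -0.20, over 2 probes. Of all genes with at least 2 probes, 1.96% counted. Serpina3m, on 1 probe at the end of the Serpina cluster, read -0.25, -0.40, -0.26 and 0.27. Of all genes with 1 probe, 8.77% counted. Serpina3m was above 0 in tumour 4 alone, and neither gene counted without tumours 1 and 4. Without tumour 1, 2 or 4 in turn, 1 member counted.

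At a threshold of 0.1, 9 members had opposite signs (22.5%, against 20.9% of all genes). Besides Serpinb2 and Serpina3m these were Serping1, Serpina10, Serpina6, Serpina11, Serpina9, Serpina3h and Serpinb9b, of which 5 belong to the Serpina cluster. In 7 of the 9, tumours 1 and 2 lay on opposite sides of 0, and in 6, tumours 1 and 4 did. The same split by tumour pair was not computed over all genes, so it is not shown to be particular to the serpins. At 0.3 no member counted.

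With the trend on G and C removed, 3 members had opposite signs at 0.2, 6 were above 0 in all tumours and 5 below. The shares of all genes were not computed with this trend removed, so these counts have no background beside them. Over the serpin genes with at least 2 probes, the SD between probes of a gene was 0.12, 0.35, 0.11 and 0.14 in tumours 1 to 4 (all genes 0.14, 0.38, 0.16 and 0.16). The members with the largest values in tumour 2 were Serpina1e, Serpina11 and Serpina10 upward and Serpinb9e, Serpinh1 and Serpina3m downward. The first 3 have 43.1%, 43.4% and 38.3% G and C in their probes and the latter 33.3%, 31.7% and 35.0%.

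**Figure D4:**
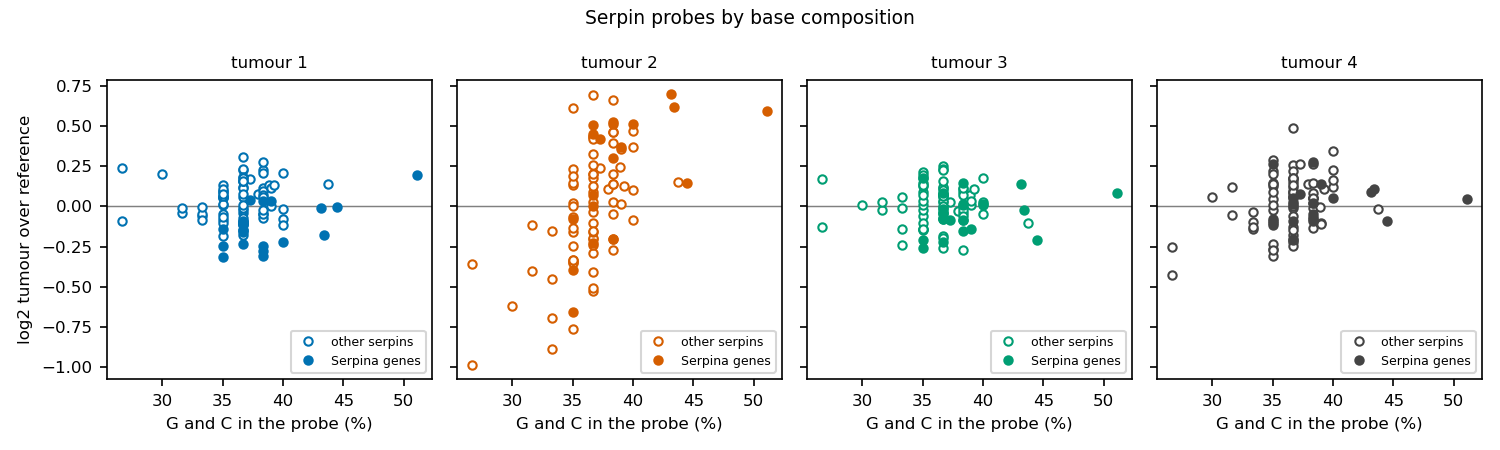
Log2 tumour to reference ratio of the 89 serpin probes against the percentage of G and C in the probe, 1 panel per tumour, with probes of Serpina genes filled. The slope is clear in tumour 2 (r = 0.59), weak in tumour 4 (r = 0.27) and near 0 in tumours 1 and 3 (r = 0.04 and 0.00).

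The genes of the proteases that serpins inhibit were looked at as a list, which also held Hgf, a growth factor and not a protease. Of 34 entries 29 were on the array, 17 had at least 2 probes, and none passed the limma test in either direction (smallest adjusted p 0.157, limma). The median of the 29 means was 0.02, beside 0.00 over all genes, and 0.06 without tumours 1 and 4. It was -0.01 without tumour 2 and 0.00 with mode centring or with the G and C trend removed. Among those with at least 2 probes, the highest were Tmprss6, a liver protease that restrains hepcidin, at 0.34 ± 0.28 (SD, n = 4), and the lysosomal cathepsin Ctsb, at 0.11 ± 0.07 (SD, n = 4). Tmprss6 read 0.33, 0.73, 0.07 and 0.22, all above 0. The lowest of the same 17 were the plasma prekallikrein gene Klkb1, at -0.11 ± 0.11 (SD, n = 4), and the cathepsin Ctsl, at -0.10 ± 0.12 (SD, n = 4).

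Serpin partners and clearance receptors formed a second list. It also held the chromosome 12 genes Gsc and Ppp4r4, which are neither serpin partners nor receptors. Of 15 entries 13 were on the array, 7 had at least 2 probes, and none passed (smallest adjusted p 0.204 at Ppp4r4, limma). The median of the 13 means was -0.05, and 0.02 without tumours 1 and 4. Among those with at least 2 probes, the highest were Lrp1 and Vldlr, which take up serpin-protease complexes, at 0.07 ± 0.16 and 0.05 ± 0.08 (SD, n = 4). The lowest of the same 7 were Plaur, the urokinase receptor, at -0.40 ± 0.43 (SD, n = 4), and Ppp4r4, a chromosome 12 gene on the array as 8430415E04Rik, at -0.14 ± 0.10 (SD, n = 4). Plaur read -0.26, -0.78, 0.14 and -0.70, so tumour 3 lay apart from the others.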

How the data were processed

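Array comparative genomic hybridization was measured in 4 tumours, 1 array each. Per the file headers, the deposited intensity of each channel (processed signal) came from Agilent Feature Extraction 12.0.1.1 (12.0.0 per the submitters' processing notes), background-subtracted and dye-normalized by a linear factor. The deposited log10 ratio was used only to check direction, and lay within 0.001 of the computed one at 99.7% or more of spots.

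Log2 of red over green processed intensity was computed, flagged spots were left out, spots of a probe and then probes of a gene were averaged, and arrays were centred on the autosomal median, without loess. Gene names on several chromosomes (28) were left out. A cluster is a run of members under 1 Mb apart. Clusters were compared with their chromosomes by exact sign-flip tests. Genes with at least 2 probes were tested with limma 3.58.1 (R 4.3.3, Benjamini-Hochberg), checked on simulated data. Other steps used Python 3.11.15.

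Named genes were those of opposite sign, the 3 highest and 3 lowest means, cluster ends and 22 genes of known role, 14 of them on the array. The remaining members were added afterwards so that each is accounted for, except 1 that is counted but not reported here by name. The members and lists were chosen with earlier results of these data known. Alternatives were normexp correction (offset 50), mode centring, intensity and G and C trends, flagged spots, medians, other cluster or chromosome probes, thresholds, the slide as a block, and left-out tumours. The number of arrays limits the precision.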

Additional observations from a re-analysis of the deposited data

Results flagged for a closer look

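Among 43 values examined over the 4 tumours, 1 had a sample far from the others. Serpinb12 read -0.062 in tumour 1, and the nearest tumour read 0.07. The gap was 0.885 of the gene's whole range, above Dixon's 95% critical value for 4 samples. Chance flags about 1 in 20 such values. Every value of Serpinb12 was smaller than its expected error.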

How the results depend on the processing

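The Serpina cluster stayed above the rest of chromosome 12 under 15 alternatives (0.05 to 0.16) and the chromosome 1 cluster above its chromosome under 14. No p passed the threshold, which the sign-flip test cannot reach with 4 tumours. The chromosome 13 difference (-0.0038) turned sign with the G and C trend removed (0.00047), with Serpin-named probes only (0.0056) and over left-out tumours (-0.0089 to 0.0023, above 0 without tumour 2 or 4). Members passing limma went from 0 to 3 with normexp correction and with the slide as a random block (its correlation was -0.34), and to 0 to 3 over left-out tumours. Opposite signs went from 2 to 4 with normexp correction and to 1 with the intensity trend removed. They went to 1 among genes with at least 2 probes (1.96% of all such genes), 9 at 0.1 (20.9% of all genes) and 0 at 0.3. Over left-out tumours the count was 1 to 2, and without tumours 1 and 4 it was 0. For sign counts given here without a share, the share of all genes was not computed. Genes above 0 in all tumours went from 6 to 10 with normexp correction (20.7% of all genes) and to 4 with mode centring (11.8%). They were 4 among genes with at least 2 probes (14.3%) and 11 without tumours 1 and 4 (32.6%). Over left-out tumours they were 6 to 10, with the 10 found without tumour 1 (22.2%). Genes below 0 went from 6 to 9 with normexp correction (23.4%), 3 with the intensity trend removed (14.2%), 3 among genes with at least 2 probes (16.8%), 7 to 9 over left-out tumours and 11 without tumours 1 and 4 (33.5%), where fewer arrays have to share a sign. Of 231 values of 21 named genes, 230 moved by less than 1 SD, and Serpinh1 moved to -0.41 under normexp. A move under 1 SD can still change the sign. The mean of Serpina6 went from 0.10 to -0.04 without tumour 2, and that of Serpinc1 from -0.04 to 0.04 under normexp, among others. The G and C trend and leaving out tumours 1 and 4 together were chosen after seeing the data. The cause of the other changes was not tested. No paired analysis was possible because the tumours form 1 group. The array of tumour 2 was the noisiest.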
